A study of Arabidopsis thaliana with 8 samples.

Results

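Transcripts were compared between ddm1-2 mutant and Col-0 wild-type inflorescences of Arabidopsis thaliana, in plants that keep a functional RDR6 gene. All 4 arrays whose genotype is ddm1-2 or Col-0 were taken, of 8 in the series, with all 22746 probe sets other than the manufacturer's controls. The samples were ddm1-2 (2 arrays) and Col-0 (2 arrays), and the series also holds the double mutant ddm1-2 rdr6-15 (2 arrays) and rdr6-15 (2 arrays). Inflorescence tissue of flower stages 9 to 12 was collected from plants grown in long days, and labelled RNA made from 6 ug of total RNA went onto each Affymetrix ATH1 array; per the labels the tissue behind an array was pooled, with n = 3. The labels call the arrays of a genotype biological replicates. The generation in which the ddm1-2 plants were homozygous is not given in the sources used here.

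DDM1 is a SWI/SNF-type chromatin remodeller that DNA methyltransferases need to reach the histone-rich chromatin over transposons. Plants without it lose DNA methylation over heterochromatin, and transposons as well as some genes with repeats in or near their promoters become transcribed. RDR6 copies RNA into double-stranded precursors of secondary small interfering RNAs, a second layer of control that acts on transposon transcripts in such plants. In the annotation used here most transposon loci on the array bear the biotype pseudogene, beside ordinary pseudogenes.

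Values are log2 signals, so a difference of 1 unit is a doubling. Correlation across probe sets was 0.988 between the ddm1-2 arrays and 0.987 between the Col-0 arrays, and 0.946 to 0.959 between genotypes. A probe set is said below to have risen or fallen, or to be called, where a limma fit of all 8 arrays gave an adjusted p under 0.05 (Benjamini-Hochberg over the 22746 probe sets). That fit includes rdr6-15 replicate 1, which correlated at only 0.852 to 0.879 with the other arrays. The gap between the rdr6-15 arrays enters the estimate of spread. Counts are therefore also given for a fit of the 4 arrays alone. Control level is 3.56, the highest mean among the array's 27 probe sets for genes of Bacillus, a bacterium. It is a cautious level set by 1 probe set, since the second highest mean is 2.76. Where both arrays of a genotype were at or below it, the difference is given as a limit counted from that level ("at least"). A gene is said here to have a probe set where the annotation listed a probe set for it. The annotation listed no probe set for DDM1 or RDR6, so neither gene was checked by its own transcript. It matched few tissue markers: 2 of 16 genes of floral organ identity had a probe set (UFO and SPL), and both lay at or below control level on all 4 arrays. RCA, the Rubisco activase of green tissue, was the 1 of 9 leaf genes matched, with 12.10 and 12.12 in ddm1-2 and 11.92 and 11.99 in Col-0.

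Annotated pseudogenes were the class that gained signal in ddm1-2. Of their 989 probe sets, 71 rose (7.18%) and 0 fell, where 0.404% of all probe sets rose and 0.171% fell. By limma 4 pseudogene probe sets lay lower at an unadjusted p under 0.05, and 169 higher, beside 956 lower and 1120 higher among all 22746. Much of the class gave no signal above control level in either genotype: 771 of the 989 (78.0%) were at or below control level on all 4 arrays, and 457 (46.2%) with the level at 2.76. At or below it on both Col-0 arrays and above it on both ddm1-2 arrays were 108. With the 4 arrays alone 144 pseudogenes were higher and 0 lower, beside 2.63% of all probe sets higher and 3.14% lower, and all 71 were among the 144. Leaving out rdr6-15 replicate 1 alone gave 135 pseudogenes higher, beside 2.15% of all probe sets higher and 2.62% lower. Leaving out replicate 2 instead gave the same count by construction, since rdr6-15 then has 1 array and adds nothing to the spread. These fits cannot tell which rdr6-15 array widens it. Both ddm1-2 arrays lay above both Col-0 arrays, with a mean difference of at least 1 unit, for 125 pseudogenes (12.6%, against 1.36% of all probe sets), and below them for 1 (0.101%, against 2.21%).

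Probe sets of coding genes moved in both directions and in small shares. Of 12443, 14 rose (0.113%) and 16 fell (0.129%), shares below those over all probe sets. After quantile normalization the split was 11 higher and 24 lower. With the 4 arrays alone 222 coding probe sets were higher and 361 lower, including all 14 and all 16, and 89 of the 222 and 249 of the 361 differed by at least 1 unit. The median difference was -0.02 for coding genes, -0.03 for pseudogenes and -0.01 over all probe sets. The classes therefore differed in their upper tail: 95% of coding probe sets lay below 0.59, while 95% of pseudogene probe sets lay below 3.22.

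**Figure D1:**
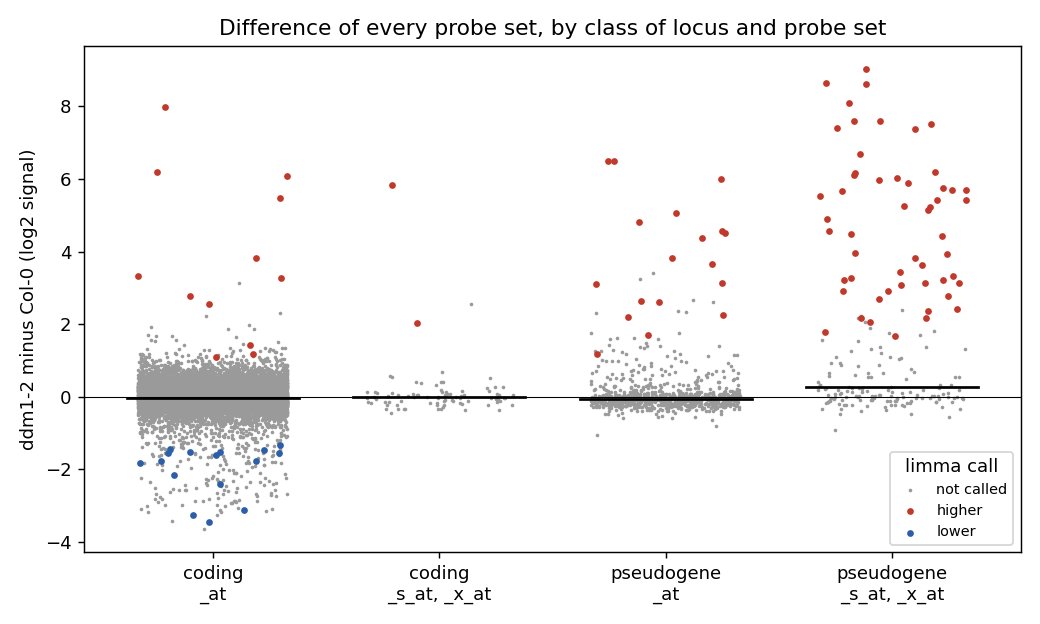
Each point is a probe set, placed by its difference between the mean of the 2 ddm1-2 arrays and the mean of the 2 Col-0 arrays (vertical axis, log2 signal), in columns by class of locus and type of probe set; the horizontal position within a column is random, the black bar is the median, and colours mark limma calls. Pseudogenes reach 9.03, not counted from control level, with 0 called lower, and coding genes hold 14 higher and 16 lower calls.

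The type of probe set matters for what a rise can be tied to. A plain _at probe set is designed against 1 transcript, while the types _s_at and _x_at also match related sequences and are called shared here. Among pseudogenes 18 of 798 plain probe sets rose (2.26%), against 53 of 191 shared ones (27.7%). The median difference was -0.06 over the plain and 0.26 over the shared probe sets, and the upper quartiles were 0.09 and 2.38. With the 4 arrays alone the numbers higher were 70 plain (8.77%) and 74 shared (38.7%). Signal of a shared probe set cannot be assigned to 1 locus, so the 53 may stand for fewer transcripts. Among coding genes 12 of 12358 plain and 2 of 85 shared probe sets rose.

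The strongest rises among pseudogenes with plain probe sets began at or near control level. AT3G47320 had 8.94 and 8.91 in ddm1-2, against 2.60 and 2.27 in Col-0, a rise of at least 5.37 (adjusted p = 2.29e-05, limma). AT4G05640 had 9.68 and 9.94 in ddm1-2, against 3.59 and 3.05 in Col-0, a rise of 6.23 counted from control level (adjusted p = 9.39e-05). AT1G34530 had 8.02 and 8.45 in ddm1-2, against 2.23 and 2.22 in Col-0, a rise of at least 4.68 (adjusted p = 0.000372). For each of these the ddm1-2 arrays lay close together and far above both Col-0 arrays. AT4G04590 had 7.71 and 8.02 in ddm1-2, against 2.94 and 2.68 in Col-0, a rise of at least 4.31 (adjusted p = 6.66e-05). AT1G43840 was the least even of the leading plain probe sets, with 7.06 and 8.04 in ddm1-2, against 3.27 and 2.20 in Col-0 (at least 3.99, adjusted p = 0.0272).

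AT3G33080, AT1G42410 and AT5G27180 completed the 8 largest rises, of at least 3.26, 3.12 and 3.38. AT3G33080 is the most embedded of them, since all 20 of its nearest neighbours in gene order (10 on each side) are pseudogenes. At the small end of the 18, AT2G20460 had 3.58 and 3.69 in ddm1-2, against 2.60 and 2.34 in Col-0, so that its rise counted from control level is only 0.08 (adjusted p = 0.0436). Both Col-0 arrays were at or below control level for 15 of the 18, and rises counted from that level ran from 0.08 to 6.23 with a median of 3.03 (3.60 from a level of 2.76). Replicate 2 of ddm1-2 lay above replicate 1 for 17 of the 18. The median gap between these arrays was 0.41 and the largest 0.99, small beside the median rise but not beside the smallest rises.

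Shared probe sets held the largest differences of the comparison. AT2G13160 had 11.64 and 12.02 in ddm1-2, against 2.77 and 2.82 in Col-0, a rise of at least 8.27 (adjusted p = 2.26e-05). AT2G12300 had 11.23 and 11.54 in ddm1-2, against 3.06 and 2.46 in Col-0, a rise of at least 7.83 (adjusted p = 1.88e-05). AT2G10640 had 11.18 and 11.51 in ddm1-2, against 2.60 and 2.79 in Col-0, a rise of at least 7.79 (adjusted p = 1.87e-05). These 3 loci lie on chromosome 2, with 17, 16 and 18 pseudogenes among their 20 nearest neighbours. AT2G12240 had 11.25 and 11.23 in ddm1-2, against 2.66 and 3.63 in Col-0, a rise of 7.65 counted from control level (adjusted p = 0.000138).

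AT1G33130, AT2G13870 and AT2G12980 rose by at least 7.00, 6.90 and 6.19. AT3G30396 was the leading shared probe set with signal above control level in Col-0: it had 11.57 and 11.84 in ddm1-2, against 4.50 and 4.08 in Col-0, a rise of 7.42 (SE 0.20, adjusted p = 1.88e-05). Both Col-0 arrays were at or below control level for 44 of the 53, and rises counted from that level ran from 1.04 to 8.27 with a median of 4.21 (4.84 from a level of 2.76). Counted so, 27 of the 53 and 4 of the 18 plain ones rose by 4 units or more. The median gap between the ddm1-2 arrays was 0.31 and the largest 1.10, with replicate 2 above replicate 1 for 45 of the 53.

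**Figure D2:**
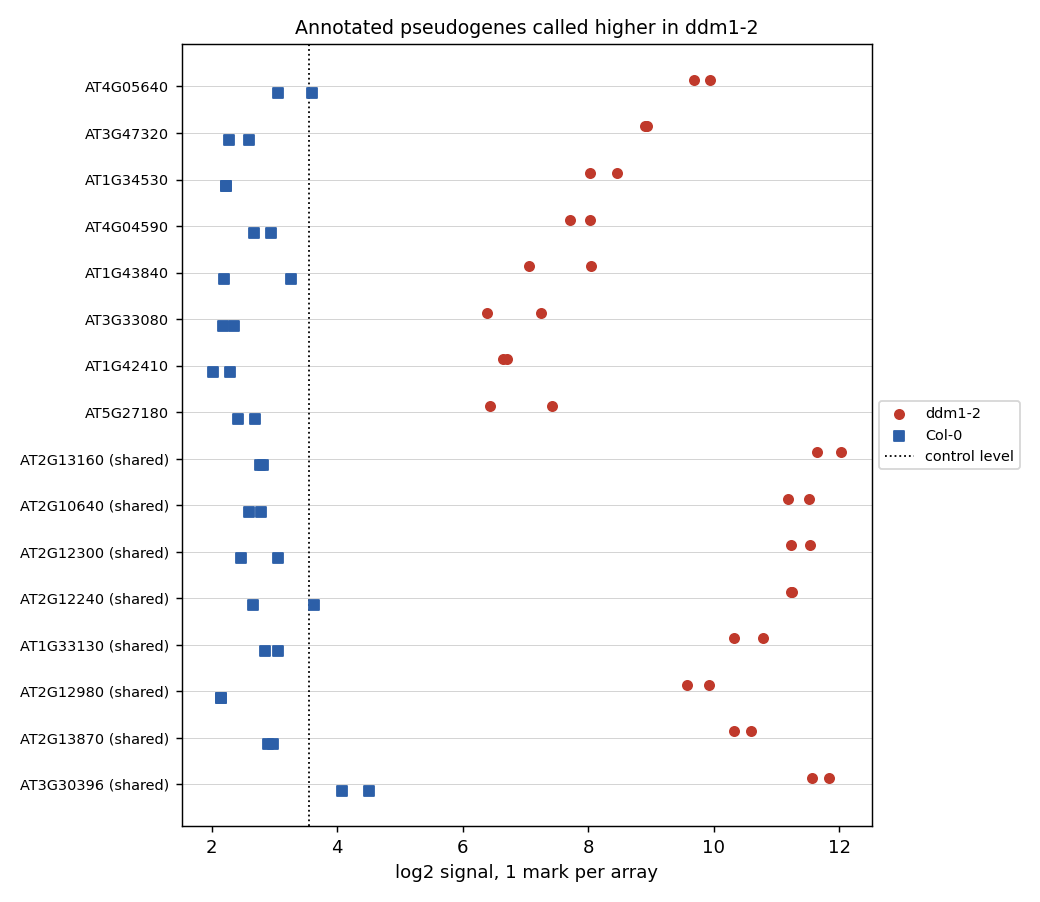
Log2 signal on each ddm1-2 array (circles) and each Col-0 array (squares) for the 8 largest rises among plain and the 8 largest among shared pseudogene probe sets; the dotted line is control level. All ddm1-2 marks lie above 6.3, and all Col-0 marks but those of AT3G30396 lie near or below the dotted line.

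Leaving out 1 array of ddm1-2 or Col-0 left a genotype with 1 array, whose spread was then taken from the other groups, and lowered the count of calls. Of the 71 raised pseudogenes, 24 (6 plain and 18 shared) were called in each of the 8 fits that left out 1 array. The count of raised pseudogenes was 24 without Col-0 replicate 1, 25 without Col-0 replicate 2, 36 without ddm1-2 replicate 1 and 27 without ddm1-2 replicate 2. Without either rdr6-15 array it was 135, and without either double-mutant array 65. AT3G47320, AT4G05640, AT1G34530, AT4G04590 and AT3G33080 were among the 6 plain ones, and all 8 shared pseudogenes named above were among the 18.

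Raised pseudogenes were found on all 5 chromosomes. The share of tested pseudogene probe sets that rose was 6.74% on chromosome 1 (13 of 193), 8.72% on chromosome 2 (26 of 298), 9.18% on chromosome 3 (19 of 207), 5.75% on chromosome 4 (10 of 174) and 2.56% on chromosome 5 (3 of 117). Chromosome 5 also had the smallest proportion of shared probe sets in the class, 11.1%, against 18.4% to 23.3% on the others. With the 4 arrays alone the shares were 17.1%, 14.1%, 14.5%, 16.7% and 8.55% for chromosomes 1 to 5. In gene order, which counts coding genes and pseudogenes, 64 of the 71 raised loci (90.1%) had a pseudogene as a direct neighbour, against 75.4% of all 989. Another raised pseudogene was the direct neighbour of 16 of the 71, and 49 of the 989 tested had a raised one beside them. AT3G47320 and AT3G47330 are such a pair. No test was made of these proportions, since shared probe sets and adjacent loci are not independent.

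**Figure D3:**
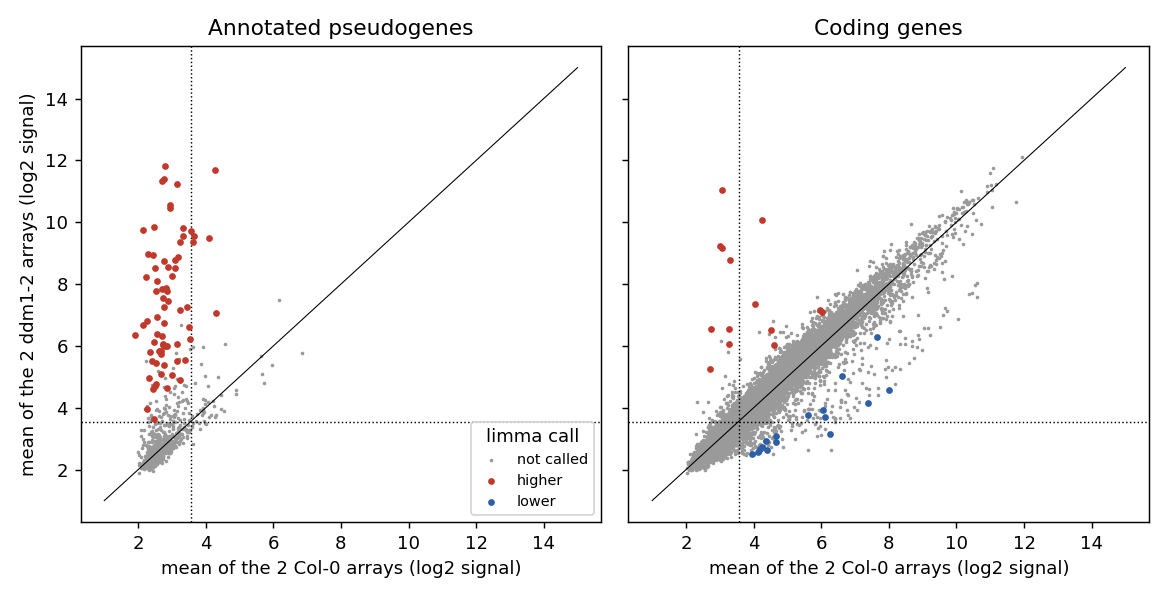
Mean log2 signal of the 2 ddm1-2 arrays (vertical) against the mean of the 2 Col-0 arrays (horizontal) for annotated pseudogenes (left) and coding genes (right); the diagonal marks equal signal, dotted lines mark control level, and colours mark limma calls. The 71 raised pseudogenes form a column at the low end of the Col-0 axis, while most coding genes follow the diagonal and the 16 lower calls lie under it.

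Few transposons known by name were matched by the annotation. Of 8 such loci 4 had a probe set, and 1 rose, where 0.404% of all probe sets and 27.7% of shared pseudogene probe sets rose. A list of 4 is too small to set against these shares. AT2G23480, a VANDAL21 element of the Mutator type, had 4.70 and 4.59 in ddm1-2, against 2.91 and 2.81 in Col-0, a rise of at least 1.09 on a shared probe set (adjusted p = 0.00953). AtMu1 (AT4G08680), a Mutator-type DNA transposon, had 4.18 and 5.16 in ddm1-2, against 2.86 and 2.65 in Col-0, with an adjusted p of 0.118, and of 0.00372 with the 4 arrays alone. CAC1 (AT2G12210), a CACTA-type element, and AT2G23500 lay at or below control level on all 4 arrays.

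Among coding genes the largest rises were from no detectable signal to strong signal. AT1G58025, a bromodomain protein gene, had 11.08 and 10.99 in ddm1-2, against 3.04 and 3.08 in Col-0, a rise of at least 7.48 (adjusted p = 9.84e-06, limma). AT1G36240, which encodes a ribosomal protein of the L30 family, had 9.03 and 9.41 in ddm1-2, against 3.22 and 2.82 in Col-0, a rise of at least 5.66 (adjusted p = 0.00116). AT5G26270 had 9.17 and 9.15 in ddm1-2, against 3.02 and 3.11 in Col-0, a rise of at least 5.61 (adjusted p = 6.66e-05). All 3 probe sets are plain, and for each the replicates of a genotype lay far closer together than the genotypes did.

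AT2G15560 had 8.62 and 8.90 in ddm1-2, against 3.13 and 3.46 in Col-0, a rise of at least 5.21 (adjusted p = 0.000111). AT1G59930, on a shared probe set, had 10.17 and 9.97 in ddm1-2, against 3.96 and 4.52 in Col-0, and rose by 5.83 (SE 0.25, adjusted p = 0.000111). QQS (AT3G30720), an orphan gene of starch metabolism whose silencing by DNA methylation varies among plants, had 7.22 and 7.52 in ddm1-2, against 3.81 and 4.25 in Col-0, and rose by 3.34 (SE 0.22, adjusted p = 0.00128). Of 11 genes listed as silenced by methylation in earlier work, QQS alone had a probe set. These 6 genes were called in every fit that left out 1 array, and the other 8 raised coding genes lost the call in at least 2 of the 8 such fits.

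Smaller rises included AT4G29200, with 5.92 and 7.18 in ddm1-2, against 2.96 and 2.51 in Col-0 (at least 2.99, adjusted p = 0.0125). AT1G20400 had 6.51 and 6.59 in ddm1-2, against 3.38 and 3.15 in Col-0 (at least 2.99, adjusted p = 0.0438). AT5G03090 and AT5G01080 rose by at least 2.50 and 1.70. The remaining 4 were genes with clear signal in wild type that rose by smaller amounts. AT1G06000, a flavonol rhamnosyltransferase gene, had 5.92 and 6.12 in ddm1-2, against 4.57 and 4.62 in Col-0 (difference 1.42, SE 0.16, adjusted p = 0.0153). TBL26, of a family of cell wall O-acetyltransferases, had 7.13 and 7.19 in ddm1-2, against 5.87 and 6.09 in Col-0 (difference 1.18, adjusted p = 0.0425). The serine carboxypeptidase-like gene scpl29 had 7.02 and 7.20 in ddm1-2, against 6.04 and 6.00 in Col-0 (difference 1.09, adjusted p = 0.0470), and AT5G15690, on a shared probe set, differed by 2.03 (adjusted p = 0.0425).

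Of the 14 raised coding genes 5 had a pseudogene as a direct neighbour in gene order (35.7%), against 10.6% of the 12293 coding loci tested. These were AT1G58025, AT1G36240, AT2G15560, QQS and AT1G20400, 4 of them among the 6 called in every fit that left out 1 array. QQS lies between pseudogenes on both sides, with 17 pseudogenes among its 20 nearest neighbours, and AT1G36240 has 12. For the 222 higher with the 4 arrays alone the share was 12.2%, and for the 16 that fell 12.5% (2 genes). Coding genes with at least 10 pseudogenes among 20 neighbours numbered 347 probe sets, of which 2 rose (0.576%), and those with none numbered 5980, of which 6 rose (0.100%). These counts are small and were not tested.

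Neighbours of the raised genes could be followed in part. Of the genes directly beside the 14, 12 had a probe set, 0 were called by limma and 1 had an unadjusted p under 0.05. Of all 22746 probe sets 0.404% rose and 0.171% fell, and 1120 were higher and 956 lower at an unadjusted p under 0.05. With shares this small, 12 probe sets cannot show whether neighbours responded. Their differences ran from -0.25 to 0.85. The pseudogene AT2G15550, next to AT2G15560, had 4.43 and 3.81 in ddm1-2 and 3.82 and 4.14 in Col-0. The pseudogene AT1G20390, next to AT1G20400, had 2.95 and 3.00 in ddm1-2 and 2.74 and 2.56 in Col-0, all below control level. The pseudogenes beside AT1G58025, AT1G36240 and QQS had no listed probe set.

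Genes that fell were all coding or without a listed gene, apart from 1 probe set shared by several genes. AT5G39520 had 4.98 and 4.14 in ddm1-2, against 7.93 and 8.10 in Col-0, and fell by 3.45 (SE 0.46, adjusted p = 0.0337, limma). AT1G05340, of a family of small cysteine-rich membrane proteins tied to stress tolerance, had 4.23 and 4.05 in ddm1-2, against 7.62 and 7.17 in Col-0, and fell by 3.25 (SE 0.26, adjusted p = 0.00397). AT1G09500, which resembles cinnamyl alcohol dehydrogenases, had 3.46 and 2.87 in ddm1-2, against 6.32 and 6.22 in Col-0, and fell by at least 2.71 (adjusted p = 0.0361). Both ddm1-2 arrays were far below both Col-0 arrays for each of them. These genes were also low in rdr6-15, where DDM1 is intact, with means of 4.02, 4.43 and 2.81. Each of the other coding genes that fell likewise had a lower mean in rdr6-15 than in Col-0. Low signal in these genes was therefore not particular to ddm1-2.

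AT3G56600 had 3.99 and 3.40 in ddm1-2, against 5.97 and 6.24 in Col-0 (adjusted p = 0.0361). AT2G25625 had 3.82 and 4.02 in ddm1-2, against 6.13 and 5.99 in Col-0 (adjusted p = 0.0303). AT3G61930 had 3.80 and 3.75 in ddm1-2, against 5.67 and 5.54 in Col-0 (adjusted p = 0.0135). The other 10 fell by smaller amounts, and for 8 of these both ddm1-2 arrays were at or below control level. They include AT5G51030 (at least 1.10 lower), AT1G18990 (at least 0.84 lower), the pectin methylesterase inhibitor family gene AT1G62760 (2.67 and 2.69 in ddm1-2, against 4.28 and 4.12 in Col-0, while its other probe set was below control level and was not called), the wax ester synthase-like gene AT3G49210 (2.77 and 3.09 in ddm1-2, against 4.42 and 4.35 in Col-0) and the cation efflux gene AT1G79520, which fell by 1.59. With either ddm1-2 array removed, or the first of Col-0, limma called 0 coding probe sets lower, and with the second of Col-0 removed it called 1, which was AT1G05340; in these fits 1 genotype had 1 array and the other groups supplied its spread. With either double-mutant array removed 9 were called. Late pollen genes, given next, also lay lower in ddm1-2, and their part in these falls was not tested. Without either rdr6-15 array 295 coding probe sets were lower, the 16 among them.

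**Figure D4:**
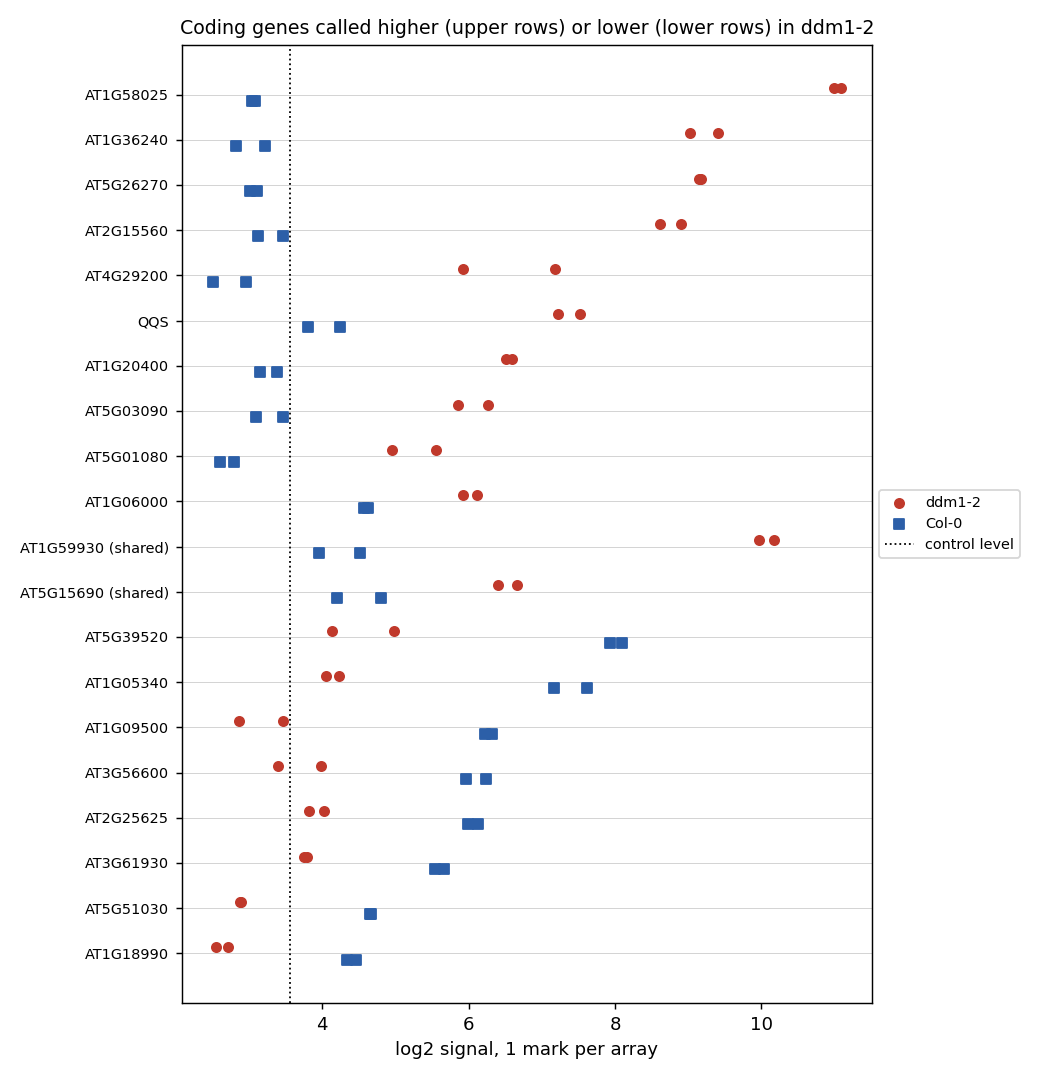
Log2 signal on each ddm1-2 array (circles) and each Col-0 array (squares) for the coding genes with the largest rises (upper 12 rows) and falls (lower 8 rows); the dotted line is control level. In the upper rows all circles lie right of the squares, and in the lower rows all lie left of them.

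Late pollen genes lay lower in ddm1-2. Of 37 loci on the list 14 had a probe set, 1 fell (0.171% of all probe sets did), and 9 were lower with the 4 arrays alone (3.14% of all probe sets). All 14 differences were below 0, with a median of -1.69 beside -0.01 over all probe sets, or -1.08 with values counted from control level. MGH3, AGL104 and AGL30 were at or below control level on all 4 arrays, so their sign carries no signal. Summed up by the list's median, the ddm1-2 arrays had 3.40 and 2.77 and the Col-0 arrays 4.56 and 5.01, so the genotypes do not overlap, and ddm1-2 replicate 2 lies below replicate 1. The gene that fell was AGL66, a MADS-box factor of pollen maturation, with 2.71 and 2.77 in ddm1-2, against 4.08 and 4.45 in Col-0 (at least 0.71 lower, adjusted p = 0.0290). In bulk tissue fewer pollen grains at a late stage and less RNA per grain cannot be told apart. Outside the 4 arrays compared, arrays of the same genotype also differed widely on such genes, as given below. Whether the flower stages collected differed between arrays was not tested. With 2 arrays per genotype, such a difference could not be separated from genotype.

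The largest differences on the list were in cell wall proteins of the pollen tube. AT1G49490, a leucine-rich repeat extensin, had 4.76 and 4.07 in ddm1-2, against 7.35 and 8.0 in Col-0, with an adjusted p of 0.471, and of 0.000123 with the 4 arrays alone. AT3G19020, of the same family, had 4.22 and 3.33 in ddm1-2, against 6.16 and 7.42 in Col-0 (adjusted p = 0.385, and 0.00165 with the 4 arrays alone). The pectate lyase gene AT59 had 4.36 and 3.49 in ddm1-2, against 6.58 and 6.93 in Col-0 (adjusted p = 0.326, and 0.000282). The arrays that only the larger fit holds differ widely within a genotype for such genes. AT1G49490 had 3.23 and 6.72 in rdr6-15, and 5.27 and 2.78 in the double mutant. Which of these arrays sets the gap between the fits was not tested. ANX1 and ANX2, receptor kinases that keep pollen tubes intact, were at or below control level on both ddm1-2 arrays. ANX2 had 3.77 and 4.83 in Col-0 and was at least 0.74 lower in ddm1-2 (adjusted p = 0.328, and 0.0187 with the 4 arrays alone), and ANX1, with 3.23 and 3.98 in Col-0, at least 0.04 lower (adjusted p = 0.410). The tapetum gene AT5G07230 had 3.39 and 4.21 in ddm1-2 and 3.31 and 2.60 in Col-0, and AMS, a regulator of tapetum development, was below control level on all 4 arrays, the 2 of 20 tapetum and early anther genes with a probe set.

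**Figure D5:**
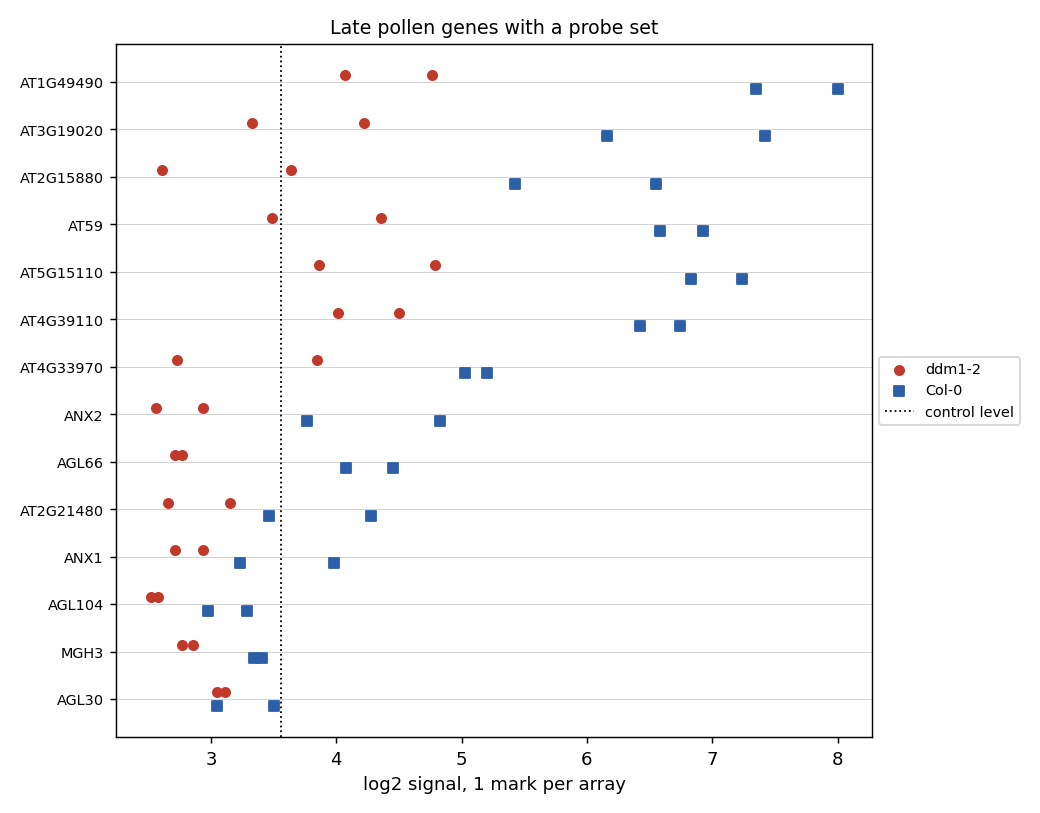
Log2 signal on each ddm1-2 array (circles) and each Col-0 array (squares) for the 14 late pollen genes with a probe set, ordered by difference; the dotted line is control level. Both circles lie left of both squares in every row but that of AGL30. The share of all probe sets with such a gap of any size was not counted. In the rows of MGH3, AGL104 and AGL30 all marks lie at or left of the dotted line.

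Several large differences outside the list also failed in the fit of 8 arrays and passed with the 4 alone, and are named here after their values were seen. AT1G49290 had 2.75 and 2.53 in ddm1-2, against 5.97 and 6.62 in Col-0 (adjusted p = 0.0695, and 1.71e-05 with the 4 arrays alone). PLIM2a, an actin-binding LIM protein of pollen, had 7.17 and 6.06 in ddm1-2, against 9.24 and 9.79 in Col-0 (adjusted p = 0.689, and 0.000722). RALFL26, of the family of RALF signal peptides, had 5.44 and 5.09 in ddm1-2, against 7.96 and 7.82 in Col-0 (adjusted p = 0.410, and 4.20e-05). In the other direction AT5G41660 had 5.76 and 6.56 in ddm1-2, against 2.93 and 3.12 in Col-0 (adjusted p = 0.0696, and 9.63e-05). In all, 92 coding probe sets had both ddm1-2 arrays below both Col-0 arrays by a mean of at least 2 units and 15 had them above, where the shares over all probe sets were 0.695% lower and 0.457% higher. The coding shares were 0.739% and 0.121%, and those of pseudogenes 0% and 7.89%.

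Gene families, taken by shared symbol where at least 10 coding probe sets bore it, held few calls, as did the array as a whole (0.404% of all probe sets higher and 0.171% lower). Genes listed by locus number alone, such as the raised flavonol rhamnosyltransferase gene AT1G06000, were placed in no family, so the families are incomplete. Of 29 serine carboxypeptidase-like probe sets scpl29 rose, while scpl38 had 3.98 and 3.39 in ddm1-2 and 6.59 and 7.13 in Col-0 with an adjusted p of 0.383. Of 22 TBL probe sets TBL26 rose. In 17 families, among them 47 UGT glycosyltransferases, 24 CYP cytochromes P450 and 14 SWEET sugar transporters, limma called 0 of 269 probe sets over all 8 arrays, while 14 were higher and 15 lower at an unadjusted p under 0.05, and 9 were higher and 13 lower with the 4 arrays alone, where 2.63% and 3.14% of all probe sets were. Their median differences lay between -0.23 (EXPA expansins) and 0.26 (IQD calmodulin-binding proteins).

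Most of the silencing machinery could not be measured, and the few listed genes with a probe set were not called. Of 23 loci for chromatin silencing 3 had probe sets, 5 in all. The linker histone H1 genes AT1G06760 and AT2G30620 had 7.78 and 7.86, and 7.74 and 7.78, in ddm1-2, against 7.87 and 7.74, and 7.71 and 7.75, in Col-0. DME, a DNA demethylase, differed by -0.25 to 0.18 over its 3 probe sets, 2 of them below control level. In the small RNA list AGO7, the Argonaute that starts trans-acting siRNA production, had 3.83 and 4.15 in ddm1-2, against 3.34 and 3.47 in Col-0 (adjusted p = 0.522), and SE, a partner of DCL1 in making microRNAs, had 5.15 and 4.97 in ddm1-2, against 5.27 and 4.66 in Col-0 (adjusted p = 0.952). No locus of the lists for RNA-directed DNA methylation (17), DNA damage response (14) or heat shock (8) had a listed probe set. SAG101 of the 18 defence loci and SAG29 of the 6 senescence loci were not called: SAG101 was below control level on all 4 arrays, and SAG29 had 5.95 and 5.62 in ddm1-2, against 6.02 and 5.76 in Col-0.

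Probe sets for which the annotation lists no gene made up 8730 of those tested, and 7 rose (0.0802%, against 0.404% of all probe sets) and 22 fell (0.252%, against 0.171%). The largest fall of the comparison was among them, with means of 3.96 in ddm1-2 and 9.96 in Col-0 (adjusted p = 0.0115, limma). Its mean in rdr6-15 was also low, at 3.97. These cannot be placed in either class here.

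The same mutation can be followed in plants that also lack RDR6, in the double mutant set against rdr6-15, 2 arrays each. The means of these arrays did not enter the choice of genes, but their spread did, since all 8 arrays share its estimate. Of the 71 raised pseudogenes 68 were above 0 in the double mutant minus rdr6-15, where 47.9% of all probe sets were above 0. With every value below control level set to it, 64 of the 71 were above 0 and 7 at 0, with a median of 2.10 over the plain and 1.38 over the shared probe sets. Of the 14 raised coding genes 11 were above 0, with a median of 1.45 counted from control level, and of the 16 that fell 7 were below 0, or 2 with values counted from control level. AT1G58025 had 10.59 and 10.58 in the double and 2.97 and 2.76 in rdr6-15, whereas AT4G29200 had 2.38 and 2.60 in the double and 2.96 and 2.57 in rdr6-15. Set beside ddm1-2 itself, the double mutant's mean was at least 2 units lower for 23 of the 53 raised shared pseudogenes and 3 of the 18 plain ones. It was within 0.5 of the ddm1-2 mean or above for 17 and 10. These pseudogenes were chosen for high values on those same ddm1-2 arrays, which favours a lower double mutant. The same counts over all probe sets were not made, so nothing about RDR6 is read from them. AT2G13160 kept its level, with 11.98 and 11.87 in the double and 3.34 and 2.66 in rdr6-15. AT3G33080 had 4.87 and 5.07 in the double and 2.70 and 2.32 in rdr6-15. The interaction, which asks whether the effect of ddm1-2 differed between the RDR6 backgrounds, passed for 2 of all probe sets (0.00879%), QQS and the pseudogene AT3G30610, which is named for this after its values were seen. AT3G30610, on a plain probe set, had 6.01 and 6.26 in ddm1-2, against 2.53 and 2.41 in Col-0, and 2.42 and 2.54 in the double and 2.55 and 2.62 in rdr6-15, so that its signal was above control level in ddm1-2 alone.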

How the data were processed

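The authors deposited 1 log2 value per probe set and array, made with RMA per the submitters' processing notes, which as used here state no version or settings. Probe sets were paired with genes through the platform annotation and with locus, biotype and gene order through a TAIR10.1 reference table, by name only: 12443 tested probe sets were coding (69 of them organellar), 989 annotated pseudogenes, and 8730 had no gene listed. Limma 3.58.1 in R 4.3.3 fitted a mean per genotype to all 8 arrays (lmFit, eBayes, 4 residual and 2.82 prior degrees of freedom), with ddm1-2 minus Col-0 as the contrast, two-sided. The fit was tested on simulated data. The 4 arrays alone gave 2 residual and 7.35 prior degrees of freedom. The number of arrays limits the precision. Named genes were the largest called differences without overlap, per class (10 up and 8 down for coding, 8 for pseudogenes), and members of 13 lists. Families and far-apart genes were taken after the files were read. Members, lists and classes were chosen with earlier results of these data known. Alternatives were a replicate block, the 4 arrays alone, quantile normalization, median centring, no dim probe sets, a trended and robust variance, array weights and leaving out each array.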

Additional observations from a re-analysis of the deposited data

Results flagged for a closer look

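The effect of ddm1-2 on QQS differed between plants with and without RDR6. QQS had means of 5.85 in the double mutant and 6.93 in rdr6-15, and 7.37 in ddm1-2 and 4.03 in Col-0, so that its interaction was -4.43 (SE 0.31, adjusted p = 0.0277, limma). The pseudogene AT3G30610 was the other of 2 among 22746 probe sets that passed (0.00879%): it had means of 2.48 in the double mutant and 2.58 in rdr6-15, and 6.13 in ddm1-2 and 2.47 in Col-0, and an interaction of -3.76 (SE 0.23, adjusted p = 0.0249, limma). Its means outside ddm1-2 were all below control level, so the size of that interaction includes background signal, and its rise in ddm1-2 counted from control level was at least 2.58.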

How the results depend on the processing

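The labels number the replicates alike, but the difference of replicate 1 from replicate 2 correlated at only 0.06 between ddm1-2 and Col-0, so the numbers were not taken as pairs. With a replicate block 11 coding probe sets were higher, 10 lower, and 57 pseudogenes higher. The 4 arrays alone gave 222 coding higher, 361 lower and 144 pseudogenes higher, and array weights 81, 197 and 122. A trended and robust variance gave 35 coding lower, and leaving out dim probe sets 9. Leaving out 1 array moved coding higher calls from 14 to between 6 and 177, coding lower from 16 to between 0 and 295, and pseudogenes from 71 to between 24 and 135; removing either rdr6-15 array gave the upper ends. Quantile normalization and median centring kept these counts within 1.5 times. Of the 38 named probe sets called, 0 changed sign under any alternative; 9 lost the call with the replicate block, 3 after quantile normalization, 0 with median centring, the 4 arrays alone or array weights, 19 and 18 without Col-0 replicate 1 or 2, 16 and 17 without ddm1-2 replicate 1 or 2, and 6 without either double-mutant array. Signal near control level limits what could be seen in 78.0% of pseudogene probe sets; at a level of 2.76, chosen after seeing the data, the share was 46.2%.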
